A study of Homo sapiens with 6 samples.

Results

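The genes for the nuclear-encoded subunits of the mitochondrial respiratory chain were followed complex by complex in Huh7 cells, a human hepatocellular carcinoma line, with and without raised VPS72. Members were chosen by symbol alone. Complex I took symbols that begin with NDUFA, NDUFB, NDUFC, NDUFS or NDUFV and a digit, and complex II took SDHA, SDHB, SDHC and SDHD. Complex III took symbols that begin with UQCR, complex IV those with COX4I, COX5, COX6, COX7 or COX8, and complex V those with ATP5F1, ATP5M or ATP5P. NDUFAF assembly factors and 149 symbols of pseudogene form were left out. This gave 91 of the 37822 rows of the table. Of the 91, 86 are subunit genes, 3 are non-coding RNAs (NDUFA6-DT, NDUFB2-AS1 and NDUFV2-AS1) and 2 are readthrough transcripts (NDUFC2-KCTD14 and ATP5MF-PTCD1). By complex, the 86 genes divide into 36, 4, 9, 19 and 18. NDUFA4 and NDUFA4L2, which the symbol rule takes with complex I, were counted in complex IV, where the NDUFA4 protein is known to reside.

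The respiratory chain moves electrons from NADH and succinate through complexes I, II, III and IV to oxygen, and pumps protons out of the mitochondrial matrix as it does so. Complex V, the ATP synthase, lets the protons return and uses them to make ATP. Most subunits are encoded in the nucleus and imported, a few central ones are encoded by mitochondrial DNA, and hepatocytes are rich in these complexes.

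Each group held 3 RNA sequencing libraries of total RNA. The FLAG group was wild-type Huh7 infected with a lentivirus for the FLAG tag as negative control, and the VPS72 group was Huh7 infected with a lentivirus for VPS72 overexpression. Both groups therefore carried virus, which was packaged in HEK293T cells with psPAX2 and pMD2.G and left on the cells for 24 h, and no uninfected cells were among the samples. VPS72 is a subunit of chromatin complexes that handle the histone variant H2A.Z. Whether the replicates came from separate cultures is not stated in the labels. The p-values below therefore reflect only how these libraries vary, and that variation may be technical.

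Library totals ran from 21345279 to 29091824 counts. Counts of VPS72 itself, from 511 to 686 under FLAG and from 27483 to 33086 under VPS72, matched the labels, with a log2 fold change of 5.60 ± 0.06 (standard error, SE). Hepatocyte markers such as ALB, AFP and APOB were all tested (10 of 10). Their sum was 20093 to 21003 CPM (counts scaled to the effective library size) in the FLAG group, and the VPS72 group had 22785 to 23619 CPM. In edgeR's test 8 of the 10 passed as higher with VPS72, against 0.421% of all tested genes. This list, too, was chosen with earlier results of these data known. The part of these markers in the values below was not tested. Of 8 markers of HEK293T cells, NEFL was at 0 in all 6 libraries and 1, ENO2, was abundant enough to test. The 8 together gave 35.3 to 39.9 CPM (FLAG) and 36.7 to 40.6 CPM (VPS72), nearly all of it ENO2.

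No subunit gene passed the test for a difference between VPS72 and FLAG cells. Of the 86, 79 were abundant enough to test, and 0 of the 79 had a Benjamini-Hochberg adjusted p under 0.05 in edgeR's quasi-likelihood test over 14253 genes, of which 0.617% passed. The smallest adjusted p among the members was 0.182, for ATP5F1C (edgeR). At an unadjusted edgeR p under 0.05 stood 12 of the 79 (15.2%), against 11.5% of all tested genes. By that count 10 were higher in value with VPS72 and 2 were lower, against 6.03% and 5.51% of all tested genes. DESeq2 also called 0 members, against 242 of all 14253 tested genes. Its smallest adjusted p among members was 0.0745, for ATP5F1B, and 15 members had no adjusted p. By limma-voom 0 members passed, against 128 of the 14253. At an unadjusted p under 0.05 stood 11 members by DESeq2 and 12 by limma-voom. The matching share of all tested genes was not taken for these fits. In bulk RNA, a difference in the cells present and a difference in RNA per cell cannot be told apart.

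The intervals give a range for each difference, and like the p-values they reflect only how these libraries vary. For 73 of the 79 the 95% interval of the fold change lay within 1.5-fold in either direction, as it did for 10405 of all 14253 tested genes. Intervals were narrower for more abundant genes. The other 6 were scarce genes with wide intervals: NDUFS6, NDUFB8, NDUFA7 and NDUFA13 of complex I, UQCRHL of complex III and ATP5MGL of complex V. The log2 interval of NDUFS6, -0.96 to -0.05, lay below 0, and each of the others included 0. The median log2 fold change was 0.03 over the 79 members and -0.00 over all tested genes, and 54 of the 79 (68.4%) were above 0, against 48.8% of all tested genes. Scaling by library size alone moved the median of all genes to -0.04 and that of the members to 0.00, with 40 of 79 above 0. Groups did not overlap in 15 of the 79 (19.0%), against 17.2% of all tested genes. Of these, 14 were higher and 1 was lower with VPS72, against 8.76% and 8.47% of all tested genes.

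**Figure D1:**
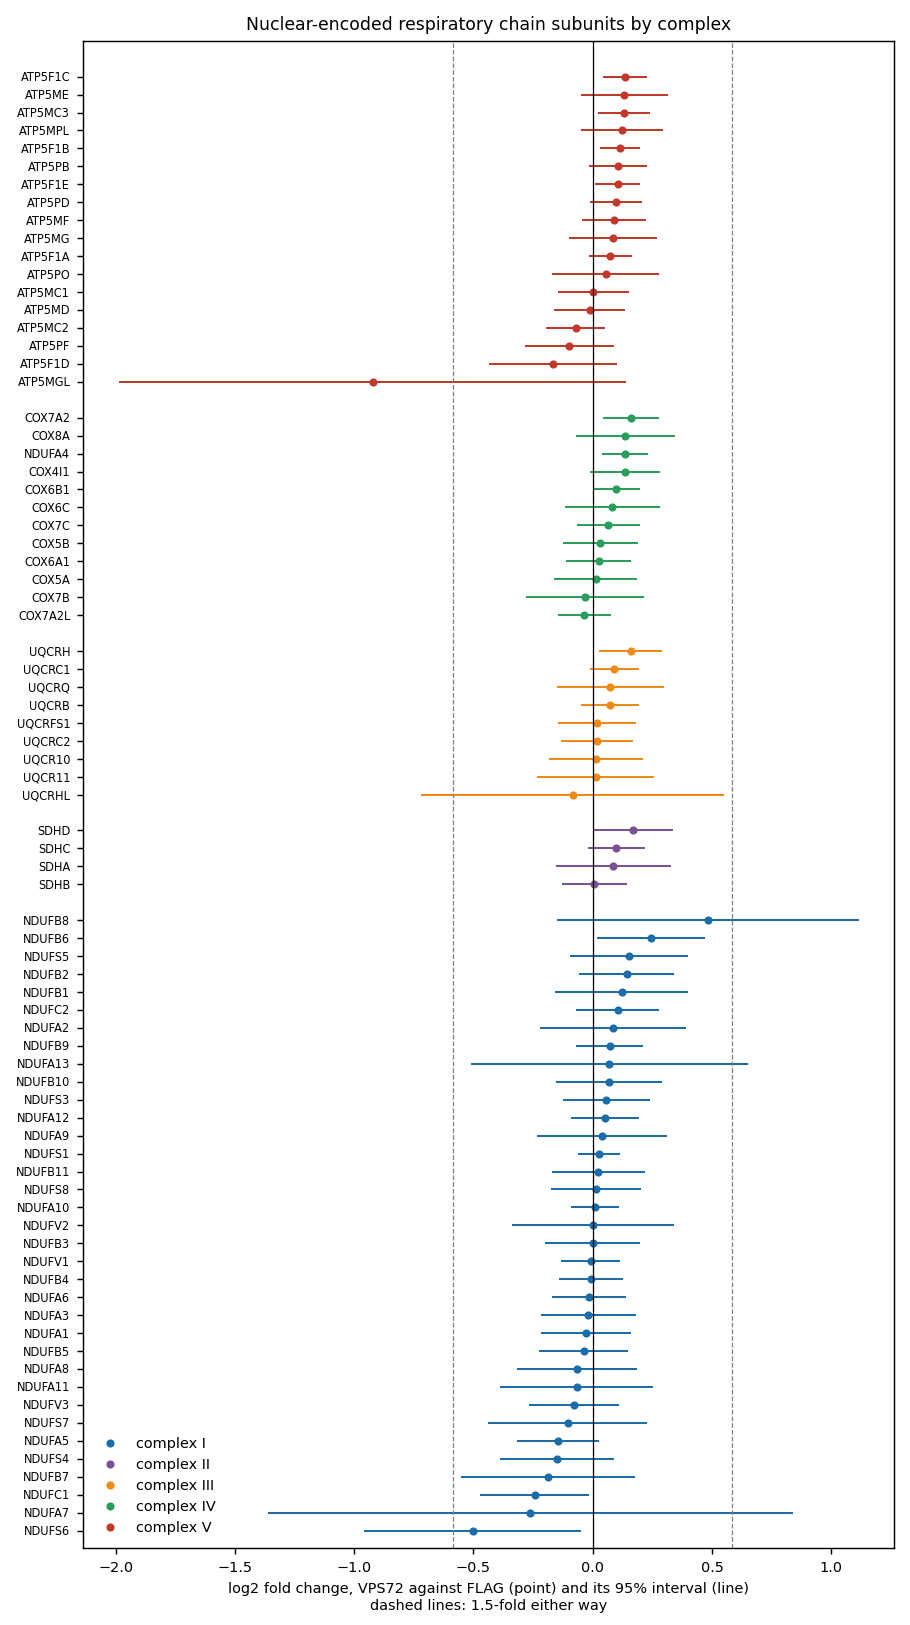
Log2 fold change of VPS72 against FLAG for the tested subunit genes, ordered within each complex (1 member of complex I is not drawn); the line is the 95% interval and the dashed lines mark 1.5-fold. Points of complexes II to V lie mostly right of 0 (by library size alone, those of III do not) and those of complex I on both sides (19 above 0 and 17 below), with medians of 0.09, 0.02, 0.07 and 0.09 for II to V and 0.00 for I.

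Nuclear respiratory genes are known targets of the transcription factors NRF1, of ETS-family factors such as GABP, and of YY1. Promoters were therefore read from RefSeq (GRCh38.p14; 250 bases before to 50 after the start) and searched on both strands for GCGC, any base and TGCGC in a row (NRF1), CCGGAAGT (ETS) and AAGATGGCG (YY1), which do not overlap one another in the promoters printed here. Of the 86 subunit genes, 66 matched an entry. The NRF1 letters were in 16 of the 66 (24.2%), against 8.57% of 15842 coding and 6.28% of all 27305 promoters of the same length. ETS letters were in 9 (13.6%), against 6.19% and 4.44%, and YY1 letters in 8 (12.1%), against 2.74% and 1.85%. At least 1 of the 3 was in 29 (43.9%), against 16.0% and 11.5%. By complex, the NRF1 letters were in 6 of 31 promoters of complex I, 2 of 3 of II, 4 of 7 of III, 1 of 14 of IV and 3 of 11 of V. The 1 of complex IV was COX8C, which had 1 count in 1 library. COX6A2, COX6B2 and COX7B2, with 0 counts in all 6 libraries, were also among the 14.

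The promoters below belong to the member with the smallest unadjusted p in complexes I, II, III and V; that of complex IV, NDUFA4, had no entry. All 4 lie on the + strand, at chr5:1801157-1801456, chr11:112086623-112086922, chr1:46303448-46303747 and chr10:7787927-7788226, and capitals mark a matched motif. The SDHD promoter holds the NRF1 letters 110 bases before the start and the ETS letters 78 bases before it, UQCRH holds the ETS letters at 47 bases and ATP5F1C the NRF1 letters at 22 bases. These letters were not found in the NDUFS6 window. A match is a description of the sequence and not a shown binding site.
NDUFS6 promoter: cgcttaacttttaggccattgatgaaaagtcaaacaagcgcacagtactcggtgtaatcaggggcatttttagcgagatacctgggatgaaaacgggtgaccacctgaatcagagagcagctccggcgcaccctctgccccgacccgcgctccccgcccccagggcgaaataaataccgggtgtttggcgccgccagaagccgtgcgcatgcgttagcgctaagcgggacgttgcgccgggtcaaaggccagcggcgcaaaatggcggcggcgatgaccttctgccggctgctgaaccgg
SDHD promoter: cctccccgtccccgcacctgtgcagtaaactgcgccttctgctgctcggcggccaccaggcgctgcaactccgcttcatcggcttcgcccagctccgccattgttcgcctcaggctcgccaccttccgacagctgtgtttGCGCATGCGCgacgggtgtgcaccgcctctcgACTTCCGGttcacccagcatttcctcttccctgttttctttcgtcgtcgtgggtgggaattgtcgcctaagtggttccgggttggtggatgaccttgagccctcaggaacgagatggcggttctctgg
UQCRH promoter: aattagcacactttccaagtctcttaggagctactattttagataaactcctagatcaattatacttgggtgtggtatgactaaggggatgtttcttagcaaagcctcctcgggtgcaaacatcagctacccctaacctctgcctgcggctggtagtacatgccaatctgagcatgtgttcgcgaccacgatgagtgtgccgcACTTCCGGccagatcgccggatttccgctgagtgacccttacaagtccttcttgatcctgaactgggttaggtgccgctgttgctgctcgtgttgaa
ATP5F1C promoter: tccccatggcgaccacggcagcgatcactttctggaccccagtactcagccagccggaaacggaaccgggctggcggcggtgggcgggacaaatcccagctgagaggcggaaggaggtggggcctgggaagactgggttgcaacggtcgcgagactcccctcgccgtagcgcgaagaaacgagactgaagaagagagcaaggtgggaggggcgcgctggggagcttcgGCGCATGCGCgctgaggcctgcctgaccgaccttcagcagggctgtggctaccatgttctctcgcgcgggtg

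Complex I, the NADH dehydrogenase, showed no shift in either direction. Its 36 members summed to 1279, 1240 and 1347 CPM in FLAG replicates 1 to 3 and to 1285, 1315 and 1272 CPM in VPS72 replicates 1 to 3. The means were 1289 ± 54.0 and 1291 ± 21.8 CPM (SD, n = 3 each), so the groups overlapped fully. The median log2 fold change was 0.00, with a sign that depended on the setting (-0.03 by library size alone, -0.02 without FLAG replicate 2).

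The 7 core subunits encoded in the nucleus, which form the conserved part of the peripheral arm, had log2 fold changes from -0.10 to 0.06. NDUFS1, which holds several of the clusters of the peripheral arm, stood at 229, 233 and 230 CPM in FLAG and 236, 226 and 243 CPM in VPS72 libraries, a difference of 1.87% (95% interval -3.81% to 7.89%). NDUFV1, which binds NADH and the flavin, averaged 156 ± 11.5 CPM in FLAG and 155 ± 9.78 CPM in VPS72 libraries. Its partner NDUFV2 averaged 5.79 ± 0.634 and 5.80 ± 0.405 CPM. NDUFS3, of the peripheral arm, stood at 28.1 ± 2.74 and 29.2 ± 1.23 CPM. NDUFS8, a cluster-bearing subunit, stood at 94.5 ± 11.4 and 95.3 ± 12.4 CPM. None of the 7 had groups without overlap. The signs of NDUFS1, NDUFS7, NDUFS8, NDUFV1 and NDUFV2 turned under at least 1 alternative setting or left-out library, and that of NDUFS3 did not.

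Among the 29 accessory subunits, NDUFS6, NDUFB6 and NDUFC1 had the smallest unadjusted p. NDUFS6, a zinc-binding subunit of the peripheral arm, stood at 9.86, 6.59 and 7.07 CPM in FLAG and at 4.52, 4.51 and 7.69 CPM in VPS72 libraries. VPS72 replicates 1 and 2 were below every FLAG library, while replicate 3 lay inside the FLAG range. The log2 fold change was -0.50 ± 0.21 (SE; edgeR, Benjamini-Hochberg adjusted p = 0.365). It was -0.80 without VPS72 replicate 3 (edgeR adjusted p = 0.143) and -0.30 without FLAG replicate 1 (0.771). NDUFB6, of the membrane arm, stood at 13.4, 12.1 and 13.1 CPM in FLAG and 15.3, 14.3 and 16.1 CPM in VPS72 libraries. Its groups did not overlap, and its log2 fold change was 0.24 ± 0.10 (SE; edgeR adjusted p = 0.367). NDUFC1, also of the membrane arm, stood at 16.6, 15.3 and 18.3 CPM in FLAG and 13.3, 15.2 and 13.8 CPM in VPS72 libraries. It was the one member whose VPS72 libraries were all lower than its FLAG libraries, by the narrow margin of 15.2 against 15.3 CPM, with a log2 fold change of -0.24 ± 0.11 (SE; edgeR adjusted p = 0.383). None of these 3 changed sign under any alternative.

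Complex II, succinate dehydrogenase, links the citric acid cycle to the chain and has no mitochondrially encoded subunit. All 4 members were higher in value with VPS72 (3 of 4 by library size alone), and none passed the test. Together they summed to 155, 153 and 147 CPM in FLAG and 162, 164 and 155 CPM in VPS72 libraries (means 152 ± 3.97 and 161 ± 4.62 CPM), without overlap. Scaled by library size alone the sums did overlap, at 148 to 157 and 153 to 162 CPM. SDHD, a membrane anchor, stood at 31.6, 30.4 and 27.0 CPM in FLAG and 32.9, 34.3 and 32.9 CPM in VPS72 libraries. The groups did not overlap, and the log2 fold change was 0.17 ± 0.08 (SE; edgeR adjusted p = 0.421), or 0.11 without FLAG replicate 3. SDHC, the other anchor, stood at 57.1 ± 2.23 and 61.1 ± 1.97 CPM, also without overlap. The catalytic pair overlapped: SDHA, the flavoprotein, stood at 14.97 ± 1.88 and 15.9 ± 0.991 CPM, and SDHB, the iron-sulfur protein, at 50.03 ± 1.75 and 50.2 ± 3.33 CPM. SDHA was below 0 without FLAG replicate 3 (log2 fold change -0.01), and SDHB was below 0 by library size alone (-0.03).

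Complex III, which passes electrons from ubiquinol to cytochrome c, had 8 of 9 members above 0 and a median log2 fold change of 0.02, and by library size alone 4 of 9 and a median of -0.01. Its sum was 342, 361 and 359 CPM in FLAG and 380, 379 and 357 CPM in VPS72 libraries, and VPS72 replicate 3 fell inside the FLAG range. UQCRH, the hinge protein next to cytochrome c1, stood at 64.0, 75.5 and 69.5 CPM in FLAG and 76.9, 81.6 and 74.8 CPM in VPS72 libraries. The lowest VPS72 library was under the highest FLAG library, and the log2 fold change was 0.16 ± 0.06 (SE; edgeR adjusted p = 0.301), or 0.10 without FLAG replicate 1. UQCRC1, a core protein, stood at 81.4 ± 0.962 and 86.7 ± 3.55 CPM, and UQCRB, a small subunit, at 47.9 ± 0.622 and 50.3 ± 0.621 CPM; neither pair of groups overlapped. UQCRC2, the other core protein, stood at 54.4 ± 4.76 and 54.9 ± 3.43 CPM. The Rieske iron-sulfur protein UQCRFS1 stood at 34.8 ± 2.08 and 35.2 ± 2.39 CPM. The signs of UQCRC2 and UQCRFS1 turned by library size alone (-0.01 each).

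Complex IV, cytochrome c oxidase, reduces oxygen to water. Of its 12 tested members 10 were above 0, with a median log2 fold change of 0.07 (8 of 12 and 0.04 by library size alone). The sum was 666, 688 and 680 CPM in FLAG and 728, 728 and 705 CPM in VPS72 libraries, without overlap (means 678 ± 11.1 and 720 ± 13.3 CPM). By library size alone it was 674 to 696 and 696 to 720 CPM, with the highest FLAG library at 695.97 and the lowest VPS72 library at 696.18 CPM. NDUFA4 is part of these sums, and the separation by library size alone depends on it. Without NDUFA4 and NDUFA4L2 the TMM-scaled sums were 566, 584 and 573 CPM in FLAG and 613, 613 and 591 CPM in VPS72 libraries. NDUFA4 stood at 99.7, 104 and 108 CPM in FLAG and 114, 114 and 113 CPM in VPS72 libraries. Its groups did not overlap, and the log2 fold change was 0.13 ± 0.04 (SE; edgeR adjusted p = 0.212). COX7A2, the broadly expressed form of subunit VIIa, stood at 97.5, 100.4 and 88.2 CPM in FLAG and 109, 109 and 101 CPM in VPS72 libraries. The margin between the groups was small, and the log2 fold change was 0.16 ± 0.05 (SE; edgeR adjusted p = 0.227). COX7A2L, of the same isoform set as COX7A2, stood at 69.0 ± 1.51 CPM in FLAG and 67.3 ± 2.60 CPM in VPS72 libraries, with overlap. COX6B1, which faces the intermembrane space, stood at 119 ± 3.36 and 127 ± 4.59 CPM without overlap. COX4I1, a regulatory subunit, stood at 76.0 ± 5.14 and 83.3 ± 8.20 CPM and overlapped. COX5A and COX5B, which bind the core, stood at 32.2 ± 2.85 and 32.5 ± 1.45 CPM and at 41.0 ± 1.05 and 41.9 ± 3.71 CPM. COX6C stood at 25.9 ± 2.37 and 27.4 ± 2.44 CPM. The signs of COX5A, COX5B, COX6A1 and COX7B turned under at least 1 alternative setting or left-out library.

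All 7 genes that could not be tested belong to complex IV and are forms tied to other tissues or to hypoxia. COX4I2, COX6A2, COX6B2, COX7A1 and COX7B2 had 0 counts in all 6 libraries, which allows at most 0.104 to 0.140 CPM per library (3 counts), for counting error only. COX8C, a testis form, had 1 count in 1 library. NDUFA4L2, known as a hypoxia-induced relative of NDUFA4, stood at 0.12, 0.12 and 0.05 CPM in FLAG and 0.03, 0.45 and 0.25 CPM in VPS72 libraries, so the spread within VPS72 was wider than the gap between groups. Among the common forms, COX6A1 stood at 38.7 ± 0.708 CPM in FLAG and 39.3 ± 0.514 CPM in VPS72, COX7B at 14.7 ± 0.321 and 14.4 ± 2.07 CPM, and COX8A at 17.0 ± 1.34 and 18.6 ± 0.590 CPM. Of 5 muscle markers, MYH7 and MB were at 0 in all 6 libraries and none could be tested. TNNT2 had 2 to 10 counts per library, CKM 0 to 10 (10 in VPS72 replicate 2) and ACTN2 1 in each FLAG library and 0 in each VPS72 library. The sum of the 5 was 0.234 to 0.471 CPM in the FLAG group and 0.211 to 0.568 CPM in the VPS72 group.

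Complex V, the ATP synthase, summed to 1485, 1518 and 1543 CPM in FLAG and 1642, 1630 and 1556 CPM in VPS72 libraries, without overlap (means 1515 ± 29.4 and 1609 ± 46.3 CPM). By library size alone the sums overlapped, at 1502 to 1554 and 1537 to 1623 CPM. The 5 genes of the F1 head made up most of the TMM-scaled sum. They gave 962, 974 and 1010 CPM in FLAG and 1071, 1067 and 1021 CPM in VPS72 libraries, without overlap. The TMM-scaled sums of the c-ring, of the stalk (narrowly) and of the small membrane subunits each overlapped between groups. Of 18 members 13 were above 0, and the median log2 fold change was 0.09 (12 of 18 and 0.06 by library size alone). In the catalytic F1 head, ATP5F1B, the beta subunit that makes ATP, stood at 475, 495 and 509 CPM in FLAG and 550, 541 and 511 CPM in VPS72 libraries. VPS72 replicate 3 exceeded FLAG replicate 3 by a small margin, and the log2 fold change was 0.11 ± 0.04 (SE; edgeR adjusted p = 0.204), or 0.07 with the abundance trend removed. ATP5F1C, the gamma subunit that forms the rotating shaft, stood at 141, 139 and 138 CPM in FLAG and 155, 156 and 147 CPM in VPS72 libraries. Its groups did not overlap, with a log2 fold change of 0.13 ± 0.04 (SE; edgeR adjusted p = 0.182), a difference of 9.76% (95% interval 3.24% to 16.7%). ATP5F1A, the alpha subunit, stood at 199 ± 8.27 and 210 ± 2.23 CPM and overlapped. ATP5F1E, the epsilon subunit, stood at 125 ± 2.99 and 135 ± 3.70 CPM without overlap. The delta subunit ATP5F1D went the other way in value, at 24.9 ± 4.86 and 22.2 ± 2.37 CPM, with overlap.

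The c-ring of complex V is built from 1 protein sequence encoded by 3 genes. ATP5MC3 stood at 82.6, 90.5 and 86.8 CPM in FLAG and 97.0, 96.8 and 90.6 CPM in VPS72 libraries. Its groups parted by a narrow margin, 90.6 against 90.5 CPM, and the log2 fold change was 0.13 ± 0.05 (SE; edgeR adjusted p = 0.294). ATP5MC2 stood at 57.8, 65.2 and 61.9 CPM in FLAG and 59.7, 59.2 and 57.1 CPM in VPS72 libraries. Counts of ATP5MC3 over ATP5MC2 gave a ratio of 1.39 to 1.43 (FLAG) and 1.59 to 1.64 (VPS72), a ratio chosen after its values were seen. Other ratios also parted, such as ATP5MC3 over ATP5MC1, at 2.39 to 2.73 (FLAG) and 2.80 to 2.84 (VPS72). Some overlapped, such as ATP5F1B over ATP5F1A, at 2.44 to 2.51 (FLAG) and 2.46 to 2.63 (VPS72). ATP5MC1 stood at 33.5 ± 0.917 and 33.6 ± 1.09 CPM, with a sign that turned by library size alone (-0.03). In the stalk, ATP5PD stood at 66.3 ± 2.48 and 70.8 ± 1.40 CPM without overlap. Among the small membrane subunits, ATP5MG stood at 20.1 ± 0.841 and 21.4 ± 0.524 CPM, also without overlap.

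**Figure D2:**
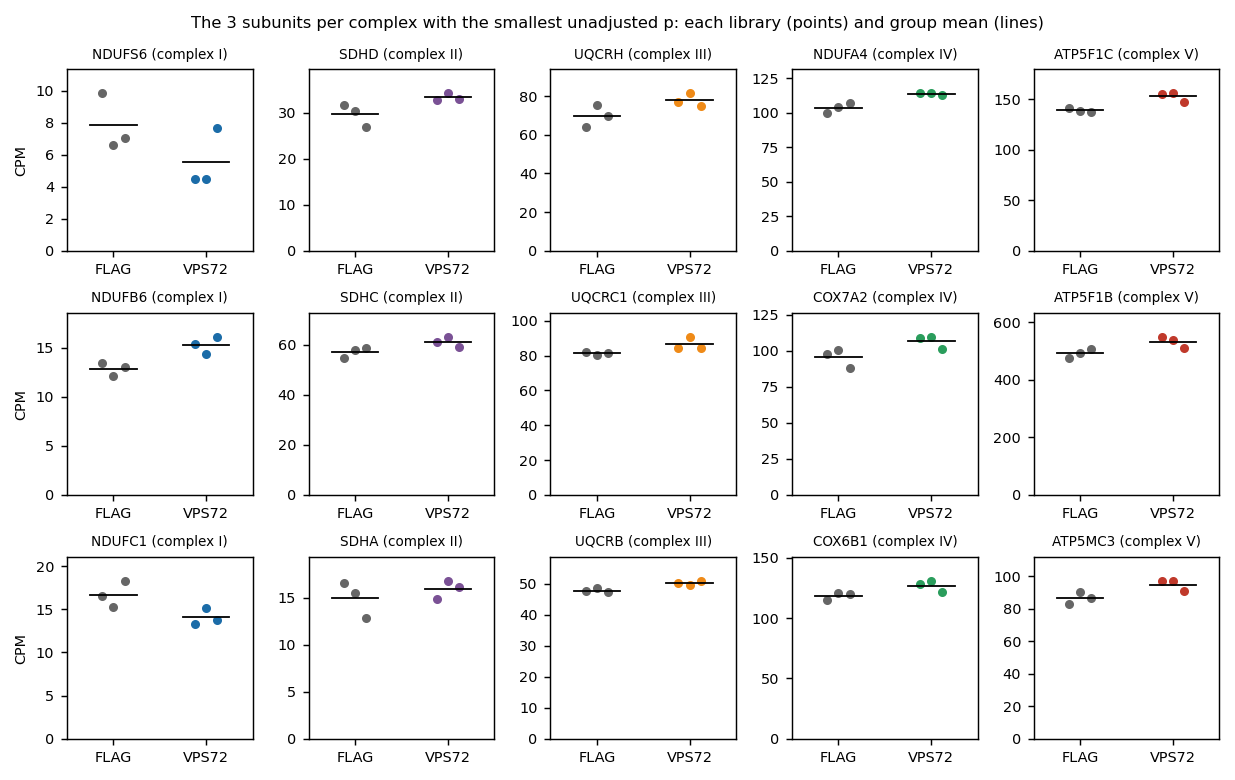
CPM in each library (points) with the group mean (line) for the 3 members of each complex with the smallest unadjusted p; every axis starts at 0. ATP5F1C goes from 139 to 153 CPM in the mean and NDUFA4 from 104 to 114 CPM, while NDUFS6 goes from 7.84 to 5.57 CPM with a wide spread in both groups.

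Over all 86 genes the sum was 3926, 3960 and 4077 CPM in FLAG and 4196, 4216 and 4046 CPM in VPS72 libraries. VPS72 replicate 3 was inside the FLAG range. The mean difference was 4.15%, from 3987 ± 79.1 to 4153 ± 92.8 CPM. Complex I made up 31.3% to 33.04% of the sum in FLAG and 30.6% to 31.4% in VPS72 libraries, ranges that overlap. Complex V made up 37.8% to 38.3% and 38.5% to 39.1%.

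**Figure D3:**
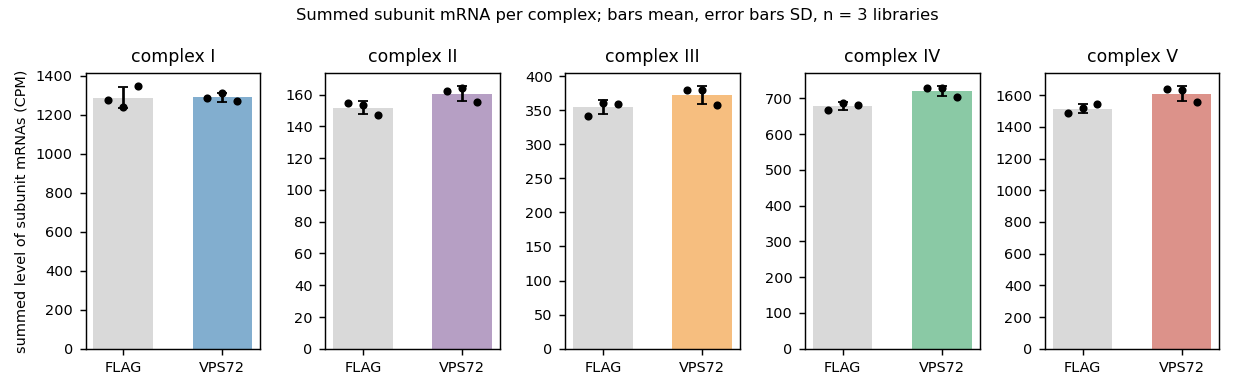
Summed CPM of the subunit mRNAs of each complex, bars for the mean and error bars for the SD of 3 libraries, points for the libraries; each axis starts at 0. The sums of complexes II, IV and V do not overlap between groups (for IV, 666 to 688 CPM in FLAG and 705 to 728 CPM in VPS72), and those of I and III do. By library size alone only those of IV stay apart, by a narrow margin (695.97 against 696.18 CPM) that depends on NDUFA4 being counted in IV.

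Differences above 0 were more frequent among abundant members, as among abundant genes at large. Of 21 members at 60 CPM or more, 17 (81.0%) were above 0, with a median log2 fold change of 0.10, and 9 (42.9%) had no overlap. Of the 3736 tested genes at that level, 62.2% were above 0, with a median of 0.02, and 25.7% had no overlap. Of 9 members under 10 CPM, 4 were above 0, with a median of -0.07, against -0.06 for the 5158 tested genes at that level. A trend with abundance removed from each library left the members' median at 0.05.

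Levels of single genes were ranked per length, as CPM divided by the median length in kb of each gene's basic coding transcripts (GENCODE 29). Shares of complexes, ratios of summed mRNA and abundance classes used CPM without length. The members' median was 42.1 CPM per kb, against 8.78 CPM per kb for all tested genes. Members had a median transcript of 750 bases, against 2374 for all tested genes. Per complex, the medians were 24.5, 40.0, 38.6, 59.7 and 66.3 CPM per kb for I to V. ATP5F1B was highest, at 279 CPM per kb, and COX6B1 and COX7A2 followed at 216 and 210 CPM per kb. NDUFS8 led complex I, at 166 CPM per kb, SDHC led complex II, at 129 CPM per kb, and UQCRH led complex III, at 122 CPM per kb. The order depends on the transcript chosen: with its longest transcript, of 13566 bases, SDHC stood at 4.36 CPM per kb.

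**Figure D4:**
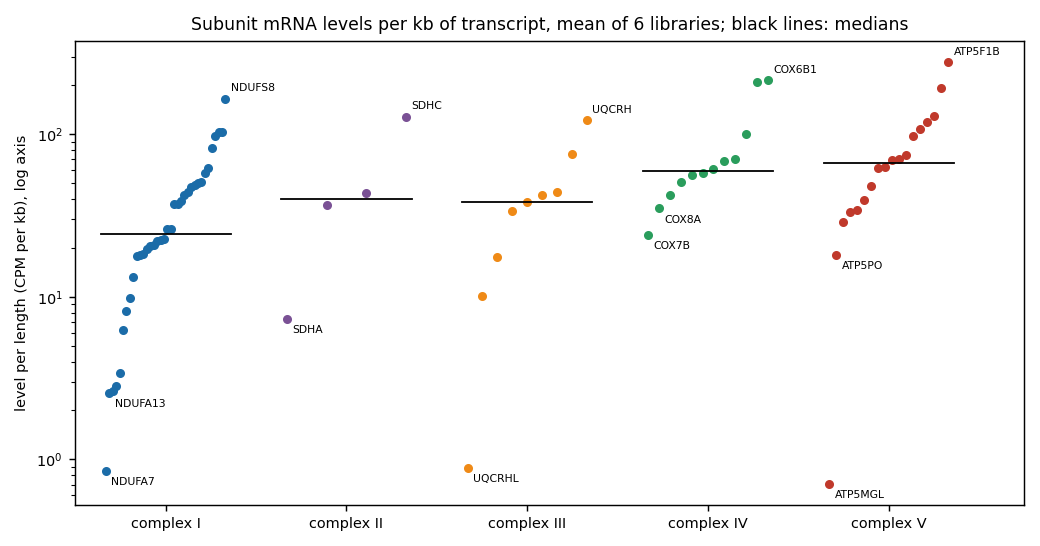
Level per length (mean of 6 libraries, CPM per kb, log axis) of each tested member by complex; the black line is the median of the complex. The median is lowest for complex I (24.5) and highest for V (66.3), and NDUFA7, UQCRHL and ATP5MGL lie far below, at 0.850, 0.889 and 0.709 CPM per kb.

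The lowest members were either near copies of another member or genes that share exons with a neighbour. UQCRHL, an intronless copy of UQCRH, stood at 0.889 CPM per kb over the 6 libraries, and UQCRH had 139 times its level per length. ATP5MGL, a relative of ATP5MG, stood at 0.709 CPM per kb, and ATP5MG had 40.6 times its level per length. How counts were divided within such pairs is uncertain. NDUFA7, NDUFB8 and NDUFA13 stood at 0.850, 2.64 and 2.56 CPM per kb, against the complex I median of 24.5 CPM per kb. In GENCODE 29 all 3 overlap another coding gene on the same strand, as do 16 of the 79 tested members. The 16 had a median of 24.2 CPM per kb, against 44.0 CPM per kb for the other 63, and whether reads went to the overlapping genes was not tested. Overlap also occurred at high levels, as for ATP5MF at 193 CPM per kb. The genes that overlap NDUFA7 and NDUFB8 had no row under their GENCODE 29 names. Among the other rows of the rule, NDUFB2-AS1 and NDUFV2-AS1 stood at 1.44 and 1.26 CPM, ATP5MF-PTCD1 and NDUFA6-DT at 0.30 and 0.15 CPM, and NDUFC2-KCTD14 at 0.

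Deviations between libraries of the same group were set against GC content. Over 74 members with at least 5 CPM, the correlation of a library's deviation from its group mean with transcript GC content was 0.20, -0.53 and 0.41 for FLAG and -0.48, 0.26 and 0.21 for VPS72 replicates 1 to 3. The points of a panel share a library, and 10234 tested genes gave 0.03, -0.35, 0.35, -0.25, 0.29 and -0.03. ATP5F1D, at 69.3% GC the richest of these members, stood at 29.003, 19.5 and 26.2 CPM in FLAG and 20.4, 21.4 and 24.9 CPM in VPS72 libraries. NDUFS7, a core iron-sulfur subunit of 66.8% GC, stood at 32.7, 19.5 and 32.6 CPM in FLAG and 22.0, 29.1 and 27.7 CPM in VPS72 libraries. For both genes FLAG replicate 2 was the lowest of the 6. Without it the log2 fold change of NDUFS7 was -0.32, against -0.10 with it. Median log2 fold changes were 0.00 for 18 members of at least 55% GC, 0.07 for 41 between 45% and 55%, and 0.01 for 20 under 45%.

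**Figure D5:**
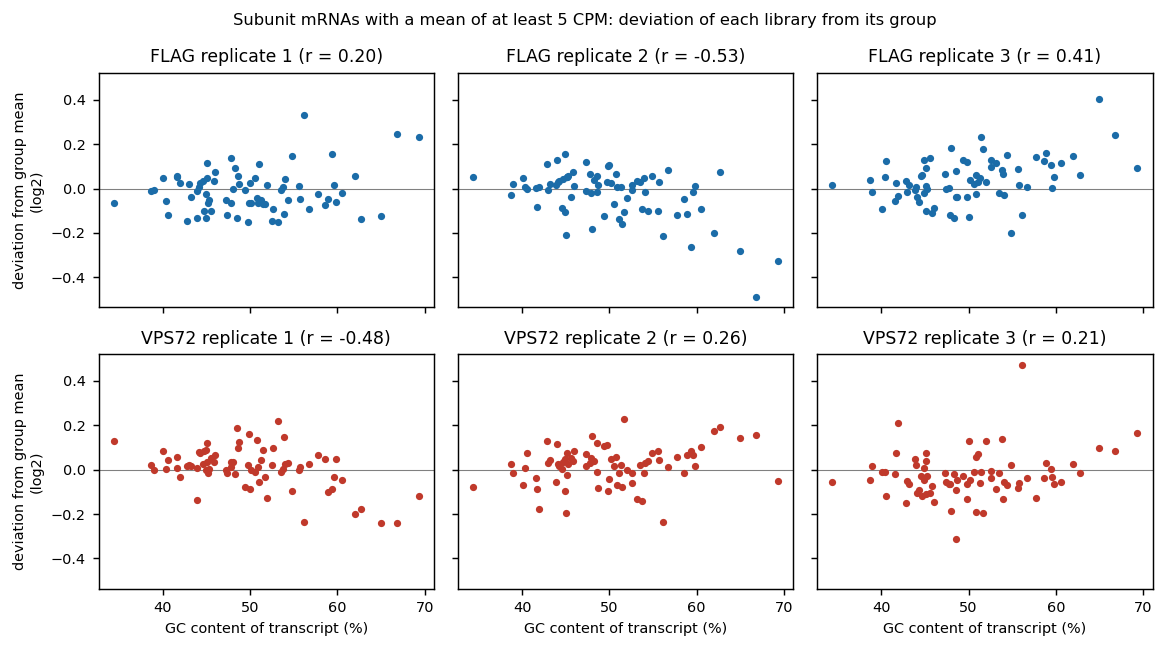
Deviation of each library from its group mean (log2) against transcript GC content (%) for the 74 members with at least 5 CPM, one panel per library, with the correlation r above. FLAG replicate 2 and VPS72 replicate 1 slope down (r = -0.53 and -0.48), and FLAG replicate 3 slopes up (r = 0.41).

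Genes around the subunits were read from lists chosen for their role, with earlier results of these data known. Of 51 assembly factors, 51 were tested and 0 passed (edgeR), against 0.617% of all tested genes. Of the 51, 26 were above 0 and 25 below, against 48.8% of all tested genes above 0, with a median log2 fold change of 0.00. At an unadjusted edgeR p under 0.05 stood 1 (1.96%), against 11.5% of all tested genes. This was ATPAF1, a chaperone of the F1 head, at 46.6 ± 2.93 and 51.2 ± 1.74 CPM. Beside the same shares of all tested genes, 0 of 5 subunits and carriers that the symbol rule leaves out passed (edgeR). Of these 5, 1 was at an unadjusted edgeR p under 0.05. That was CYCS, cytochrome c, at 307, 303 and 303 CPM in FLAG and 325, 317 and 324 CPM in VPS72 libraries, without overlap (log2 fold change 0.08 ± 0.03; edgeR adjusted p = 0.367). CYC1, cytochrome c1 of complex III, stood at 41.8 ± 2.47 and 40.6 ± 2.36 CPM.

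Of 15 regulators of respiratory genes, 14 were tested and 1 passed, as lower with VPS72. Of all tested genes 0.617% passed in either direction and 0.196% as lower. The list was chosen with earlier results of these data known, so these shares do not measure how unusual the call was. PPARGC1A, the coactivator of mitochondrial biogenesis known as PGC-1alpha, stood at 28.9, 30.6 and 25.8 CPM in FLAG and 21.6, 20.4 and 22.6 CPM in VPS72 libraries. It was lower in 3 of 3 VPS72 libraries, and its mRNA fell by 0.40 ± 0.09 on the log2 scale (SE; edgeR, Benjamini-Hochberg adjusted p = 0.0489). The call was lost with the abundance trend removed (adjusted p = 0.0707), with the replicate block (0.130), and in 5 of the 6 fits that left out a library. Those were FLAG replicates 1 (0.224) and 2 (0.123) and VPS72 replicates 1 (0.146), 2 (0.189) and 3 (0.0975); it held without FLAG replicate 3 (0.0461). Its relative PPARGC1B stood at 24.6 ± 1.96 and 27.8 ± 1.24 CPM, and NRF1 at 15.2 ± 1.16 and 12.99 ± 0.884 CPM. YY1 stood at 94.9 ± 5.28 and 95.7 ± 4.15 CPM, and GABPA at 32.7 ± 3.00 and 32.2 ± 1.91 CPM. PPARGC1B, NRF1, YY1 and GABPA did not pass.

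The 13 mRNAs encoded by mitochondrial DNA summed to 107005 ± 2472 CPM in FLAG and 111660 ± 2174 CPM in VPS72 libraries, without overlap (104151 to 108468 and 109352 to 113668 CPM); by library size alone the sums overlapped. All 13 had a log2 fold change above 0, from 0.03 to 0.12. Of all tested genes 48.8% did, and of those at 60 CPM or more 62.2%. By library size alone 10 of the 13 were above 0, and 3 were with the abundance trend removed. MT-CO1 and MT-ND1 passed as higher, 2 of the 13, against 0.421% of all tested genes. MT-CO1, the catalytic subunit of complex IV, stood at 21519, 21542 and 21579 CPM in FLAG and 23020, 22756 and 22604 CPM in VPS72 libraries (log2 fold change 0.08 ± 0.01; edgeR adjusted p = 0.00123). Its direction turned with the abundance trend removed (-0.03), and its call was lost with the replicate block (0.0516) and without VPS72 replicate 2 (0.0535). MT-ND1 of complex I stood at 5085 ± 114 and 5454 ± 115 CPM (log2 fold change 0.10 ± 0.02; edgeR adjusted p = 0.0313). Its call was lost by library size alone (0.138), by upper quartile scaling (0.0808), with the replicate block (0.136), with the abundance trend removed (0.856) and in 5 of the 6 fits that left out a library (0.0508 to 0.152), all but that without FLAG replicate 3. The ratio of mitochondrially to nuclear-encoded subunit mRNA, both in CPM, was 26.3 to 27.6 under FLAG and 25.9 to 27.7 under VPS72, with full overlap.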

How the data were processed

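The authors deposited a table of estimated counts per gene symbol, as whole numbers and not normalized. STAR, RSEM, limma, hg19 and hg38 appear in the submitters' processing notes without role, order or version, so the table gave no coordinates. In the sources used here it is not given how the values became whole or whether counting used strand. The values were used as deposited, and all 6 columns matched a sample title (0 columns unused). Near copies, overlapping genes and antisense genes are uncertain.

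Genes were filtered with filterByExpr (minimum count 10, minimum total 15), which left 14253. Libraries were scaled with TMM (factors 0.989 to 1.013) and compared by edgeR 4.0.16 in R 4.3.3 with the quasi-likelihood test, without covariates. P-values were Benjamini-Hochberg adjusted over all tested genes, with a threshold of 0.05. The common coefficient of variation was 7.24%. Chi-square per degree of freedom between libraries of a group was 4.70 to 7.69, more than sampling noise gives. CPM was computed with the effective (TMM) library size, and ± is the SD of 3 libraries unless named SE. The scripts were tested on simulated data.

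Transcript lengths and GC content came from GENCODE 29 (36959 of 37822 symbols; 98.0% of tested genes). For GC and deviations, log2 used a pseudocount of 0.5. Members and lists were chosen with earlier results of these data known. Named members were those past the threshold, per complex the 3 with the smallest p and the most and least abundant, the core or catalytic subunits and the isoform sets. Others, such as NDUFB8, NDUFA13, ATP5F1D, ATP5F1E, ATP5PD and the list genes, were named after their values were seen. The values of 1 complex I member are not reported here; it stays in the counts and sums.

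The alternatives tried were: scaling by DESeq2 size factors, by upper quartile or by library size only, no filter, a stricter filter (50 counts in 3 libraries), DESeq2 1.42.0, limma-voom (limma 3.58.1), the replicate number as a block, removal from each library of a trend with GC content and length or of one with abundance, and each library left out in turn.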

Additional observations from a re-analysis of the deposited data

How the results depend on the processing

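No subunit gene passed the threshold in the main fit or in any of the 16 alternatives (0 in each); the smallest adjusted p was 0.0745 (DESeq2), and 0.0857 with no filter. Over all genes the count was 88 in the main fit, 264 with no filter, 242 with DESeq2, 163 after correction for GC and length and 54 after removal of the abundance trend; leaving out 1 library gave 25 to 100. By library size alone the medians were 0.0005 (all members), -0.0301 (complex I), 0.0417 (IV) and 0.0552 (V), and the split of 88 calls into 60 higher and 28 lower became 32 and 54 (44 and 32 by upper quartile scaling). Leaving out 1 library gave medians of 0.0302 to 0.0642 (all members), -0.0248 to 0.0488 (I), 0.0493 to 0.1232 (II), -0.0033 to 0.0883 (III), 0.0648 to 0.0897 (IV) and 0.0600 to 0.0941 (V). The cause was not tested.

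With the replicate number as a block 32 genes passed, and 0 members. Same-numbered libraries deviated together with correlations of -0.22, -0.11 and 0.16. The largest correlation, 0.38, was between FLAG replicate 2 and VPS72 replicate 1, and not every library correlated best with its own number. With 3 libraries per group these values cannot settle whether the numbers pair the samples.

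Of 40 named tested members, 25 kept their sign in every alternative and 15 did not, in 50 of 638 values. By library size alone the log2 fold change was -0.0286 for ATP5MC1, -0.0196 for COX5A, -0.0065 for COX6A1, -0.0047 for NDUFS1, -0.0190 for NDUFS8, -0.0295 for NDUFV2, -0.0253 for SDHB, -0.0145 for UQCRC2 and -0.0144 for UQCRFS1. ATP5MC1 and NDUFV2 were at -0.0013 and -0.0020 by upper quartile scaling, -0.0008 and -0.0016 with the stricter filter, and -0.0060 and -0.0040 after the GC and length correction, where SDHB was at -0.0032. With the abundance trend removed, NDUFS1 was at -0.0031, NDUFS8 at -0.0011, UQCRHL at 0.0010 and MT-CO1 at -0.0280. Leaving out 1 library gave -0.0110 to 0.0302 for ATP5MC1, -0.0555 to 0.0718 for COX5A, -0.0325 to 0.0998 for COX5B, -0.1461 to 0.0586 for COX7B, -0.3152 to 0.0176 for NDUFS7, -0.0810 to 0.1137 for NDUFS8, -0.0571 to 0.0508 for NDUFV1, -0.0681 to 0.0931 for NDUFV2, -0.0076 to 0.1639 for SDHA, -0.0401 to 0.0508 for SDHB, -0.0322 to 0.0883 for UQCRC2, -0.0298 to 0.0712 for UQCRFS1 and -0.2917 to 0.1053 for UQCRHL.

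The 3 libraries per group and low counts limit the scarce members: the median 95% interval reached 0.58 to either side on the log2 scale under 10 CPM and 0.11 at 60 CPM or more.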
